A study of Mus musculus with 18 samples.

Results

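The NF-kB subunit genes, the genes of their inhibitors and Tnfaip3, which encodes the inhibitor A20, were followed through 6 groups of mouse bone marrow macrophages. They were taken by gene symbol from all probe sets of the array. Of the 10 genes listed, 9 were named by the array annotation used here, with 14 probe sets, out of 12393 genes tested. No probe set is named for Nfkb1 in that annotation, and it was not analysed here.

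NF-kB is a family of transcription factors that work in pairs. In resting cells the pairs are held in the cytoplasm by I kappa B proteins. Receptors such as TLR4, which senses LPS, switch on a kinase complex that marks the I kappa B proteins for destruction, and the freed pairs enter the nucleus. Many genes of the system are themselves targets of NF-kB, so that activation is followed by new inhibitor and new subunit, a feedback that shapes the inflammatory response of macrophages.

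RNA came from 18 cultures on Affymetrix arrays, 3 per group, of macrophages grown from the marrow of C57BL/6 mice aged 4 to 6 weeks in medium conditioned by L929 cells, a fibroblast line. SPIO-LPS and SPIO cells stood for 24 h with iron oxide particles of 33 nm, and Silica-LPS and Silica cells for 24 h with amorphous silica particles of 50 nm, both at a concentration that the labels give as 25 mg/ml, a unit that could not be checked here. LPS cells had control medium without particles for 24 h. After washing, the SPIO-LPS, Silica-LPS and LPS groups received 10 ng/ml of lipopolysaccharide (LPS), a bacterial cell wall component, for 4 h, and the SPIO and Silica groups control medium for 4 h, while for CON the labels name control medium and no times. No genotype or transgene differs between groups, and the labels call the arrays biological replicates without saying whether they came from separate mice, so that the p-values speak only to how these cultures varied.

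Signals are log2 values per probe set, and 1 unit is a doubling. They compare the same gene between groups and say nothing of the level of one gene against another, since probe sets differ in brightness. Array medians lay between 6.22 and 6.27 with LPS and between 6.35 and 6.43 without, and the brightest signals between 14.48 and 14.62. All 10 macrophage markers measured stood above the array median in every group, with Csf1r, the M-CSF receptor, at 13.59 to 13.95, Cd68 at 12.07 to 12.90 and Adgre1 at 11.87 to 12.31 as group means. Of the markers of dendritic, B, and T and NK cells, 0 of 16 stood above it in any group, while 6 to 8 of 10 fibroblast and 5 of 8 neutrophil markers did. The signals are those of whole cultures, in which fewer cells of a type and less RNA per cell cannot be told apart.

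The start regions of the genes are shown first because the members rose together under LPS and NF-kB binds a short DNA element, the kappaB site. RefSeq promoters of build GRCm38.p6 (250 bases before to 50 after a start site) were found for 7 of the 9 genes, with 10 start sites. Relb and Nfkbiz had no entry. A match to the kappaB consensus, searched on both strands and with overlaps allowed, was present at 7 of these 10 start sites, against 8.46% of 32851 promoters of all genes. The windows were not matched for base composition, and start sites of 1 gene were counted separately. Every Nfkb2 window held a match, and some of these windows overlap and share a match. The first 4 windows below are examples with matches, in capitals, and Nfkbib is an example without one.
Rel, chr11:23770920-23771219, minus strand: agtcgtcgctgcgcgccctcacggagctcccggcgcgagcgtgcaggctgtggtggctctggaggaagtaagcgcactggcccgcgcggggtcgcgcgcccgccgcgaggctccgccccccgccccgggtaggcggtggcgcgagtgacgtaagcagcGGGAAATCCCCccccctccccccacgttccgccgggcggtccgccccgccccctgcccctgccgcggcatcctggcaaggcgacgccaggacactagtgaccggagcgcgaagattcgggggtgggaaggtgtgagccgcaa
Nfkb2, chr19:46304487-46304786, plus strand: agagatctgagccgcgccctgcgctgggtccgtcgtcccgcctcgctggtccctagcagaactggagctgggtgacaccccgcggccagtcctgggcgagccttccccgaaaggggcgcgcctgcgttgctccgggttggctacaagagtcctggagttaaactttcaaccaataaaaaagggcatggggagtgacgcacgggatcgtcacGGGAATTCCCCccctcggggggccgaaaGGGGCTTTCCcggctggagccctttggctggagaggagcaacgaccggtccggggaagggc
Nfkbia, chr12:55492598-55492897, minus strand: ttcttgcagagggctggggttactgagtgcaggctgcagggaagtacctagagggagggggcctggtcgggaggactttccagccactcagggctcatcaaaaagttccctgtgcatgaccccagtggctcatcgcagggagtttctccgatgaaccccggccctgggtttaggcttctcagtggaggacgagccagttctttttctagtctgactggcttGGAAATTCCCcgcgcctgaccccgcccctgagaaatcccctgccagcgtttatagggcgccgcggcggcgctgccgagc
Tnfaip3, chr10:19015361-19015660, minus strand: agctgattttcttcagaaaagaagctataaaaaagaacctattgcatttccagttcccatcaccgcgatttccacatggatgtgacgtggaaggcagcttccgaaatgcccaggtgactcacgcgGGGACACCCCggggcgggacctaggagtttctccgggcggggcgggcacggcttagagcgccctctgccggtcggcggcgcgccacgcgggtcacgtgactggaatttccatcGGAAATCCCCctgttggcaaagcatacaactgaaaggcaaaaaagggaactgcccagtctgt
Nfkbib, chr7:28766595-28766894, minus strand: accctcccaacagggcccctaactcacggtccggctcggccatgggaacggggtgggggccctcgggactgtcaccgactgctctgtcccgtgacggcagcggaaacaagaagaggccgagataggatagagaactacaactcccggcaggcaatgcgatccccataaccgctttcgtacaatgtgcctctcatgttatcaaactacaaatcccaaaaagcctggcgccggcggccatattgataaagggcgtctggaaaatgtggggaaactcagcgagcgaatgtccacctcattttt
In Nfkb2 the window of the most upstream start site held 3 matches, of which those at -39 and -38 from the start site overlap and the third lies at -11. In Rel 2 overlapping matches began at -92 and -91, in Nfkbia 1 match began at -29, and in the upstream start site of Tnfaip3 matches began at -125 and -12. Nfkbie held 1 match at -106, and neither Rela nor Nfkbib held any. A match describes letters only, and absence of a match says only that these letters are not in the window.

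**Figure D1:**
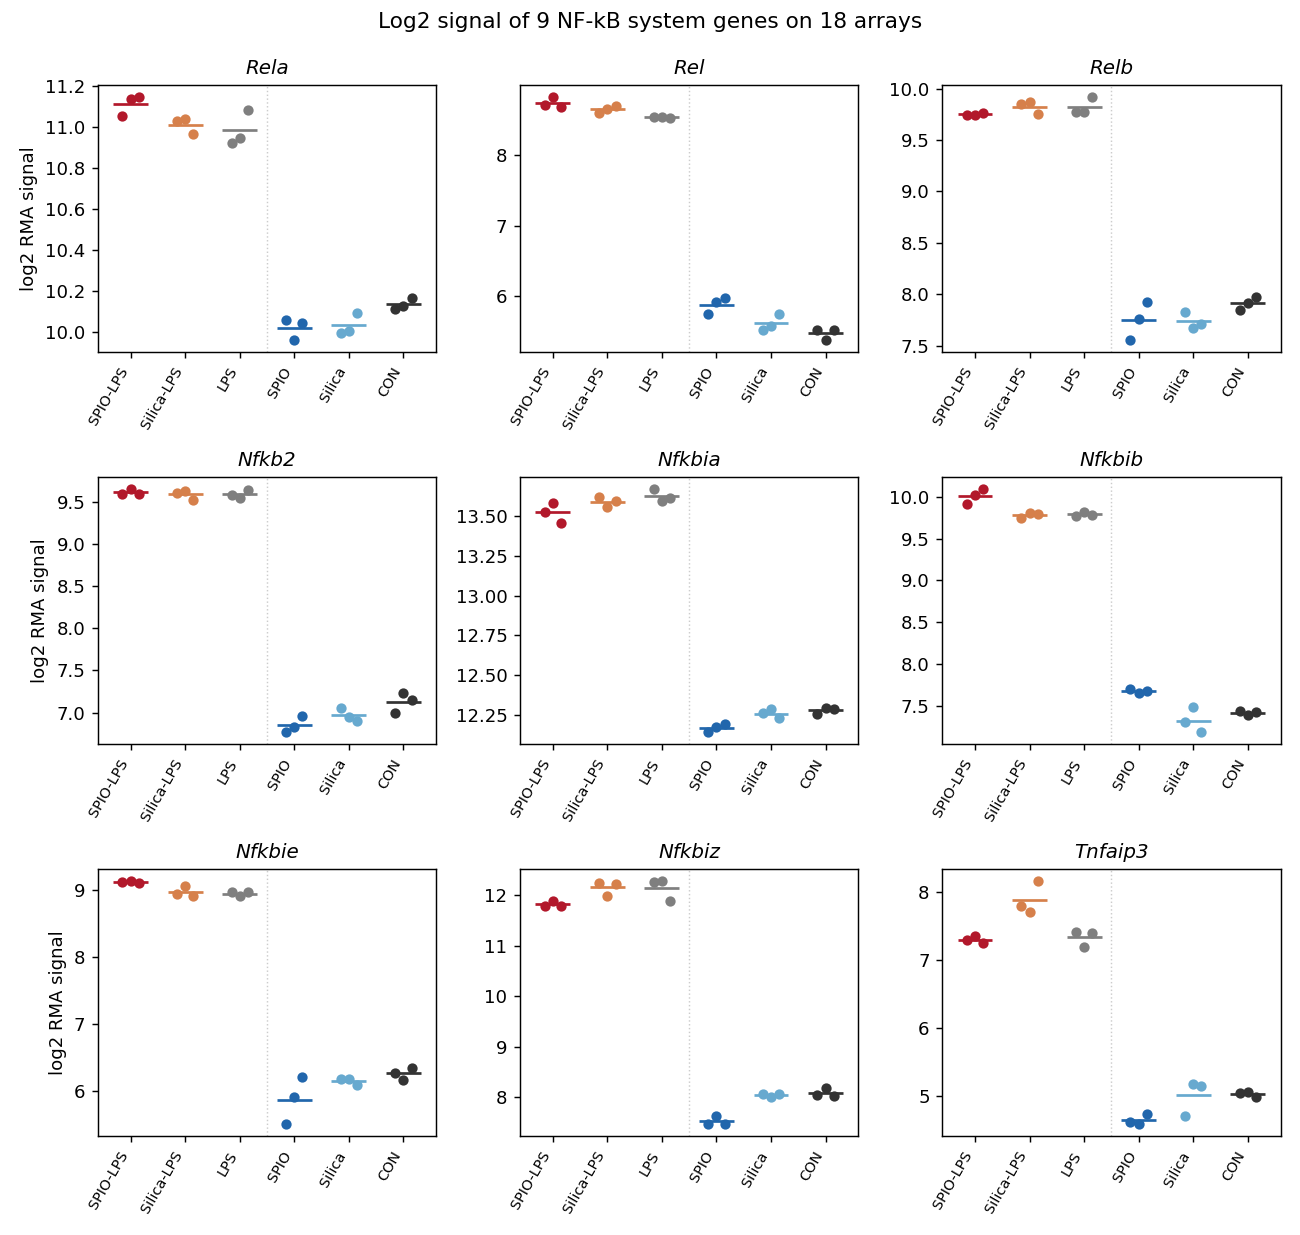
Log2 RMA signal (vertical axes) of each of the 9 genes on every array, by group, with 1 point per culture and a bar at the mean of 3. In every panel all 9 arrays with LPS lie above all 9 arrays without, and the differences between particle groups at the same LPS setting are small beside that step.

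Under LPS alone all 9 genes rose, against 22.2% of all genes tested, and the 3 arrays of each group did not overlap for any of the 9, against 26% of all genes with LPS arrays all higher. The median log2 difference of the 9 was 2.36, and that of all genes -0.01. Nfkbiz rose the most, 16.6-fold, and Rela the least, 1.80-fold. By size of rise 0.533% of all genes stood ahead of Nfkbiz and 6.22% ahead of Rela.

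Among the subunits, Rela encodes p65, the main activating subunit. Its log2 signals were 10.92, 10.95 and 11.08 in LPS arrays, against 10.11, 10.13 and 10.16 in CON arrays, a difference of 0.85 ± 0.05 (SE, n = 3 per group, adjusted p = 3.07e-10). Rel encodes c-Rel, a subunit of immune cells that activates cytokine genes such as Il12b. It stood at 8.54, 8.55 and 8.53 in LPS arrays, against 5.52, 5.38 and 5.51 in CON arrays, which is 8.40-fold (3.07 ± 0.07, adjusted p = 1.41e-15). The step in Rel was many times the spread within a group, and the LPS arrays lay within 0.02 of each other.

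Relb and Nfkb2 encode the subunits of the alternative, slower NF-kB pathway, p100 being the precursor that Nfkb2 gives. Relb signals were 9.77, 9.77 and 9.92 in LPS arrays, against 7.85, 7.91 and 7.97 in CON arrays (1.91 ± 0.08, adjusted p = 2.53e-12). Nfkb2 signals were 9.58, 9.54 and 9.64 in LPS arrays, against 6.99, 7.23 and 7.15 in CON arrays (2.46 ± 0.06, adjusted p = 1.08e-14). Both rose with no overlap, Relb 3.76-fold and Nfkb2 5.51-fold. A further Nfkb2 probe set, of the type that may bind other transcripts, gave 0.71 ± 0.09 (adjusted p = 3.93e-06 over all probe sets), less than the 2.46 of the brighter one.

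Rises of the subunit genes ran from 0.85 to 3.07, and those of the I kappa B family genes with Tnfaip3 from 1.35 to 4.05. Nfkbia encodes I kappa B alpha, the inhibitor best known for rapid resynthesis. Its brightest probe set stood at 13.67, 13.60 and 13.62 in LPS arrays, against 12.26, 12.30 and 12.29 in CON arrays (1.35 ± 0.04, adjusted p = 6.89e-14). Those LPS signals lie within 1 unit of the brightest signals of the arrays, and a limit of the scale on this rise was not tested. The other 3 probe sets of Nfkbia started lower and rose more, by 2.78 ± 0.06, 2.28 ± 0.05 and 1.88 ± 0.08. The first of these stood at 13.54, 13.54 and 13.47 in LPS arrays, against 10.61, 10.86 and 10.73 in CON arrays. The 4 probe sets share the direction, while the size of the rise depends on the probe set read.

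Nfkbib encodes I kappa B beta. It stood at 9.77, 9.81 and 9.78 in LPS arrays, against 7.44, 7.40 and 7.43 in CON arrays, a rise of 5.15-fold (2.36 ± 0.06, adjusted p = 9.10e-15). Its only probe set is of a type that may match more than 1 transcript, so this value is uncertain as a measure of Nfkbib alone. Nfkbie, the gene of I kappa B epsilon, stood at 8.97, 8.92 and 8.97 in LPS arrays, against 6.27, 6.17 and 6.35 in CON arrays (2.69 ± 0.12, adjusted p = 5.77e-12).

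Nfkbiz encodes I kappa B zeta, a nuclear member of the family that helps switch on secondary response genes such as Il6. Its signals were 12.26, 12.28 and 11.88 in LPS arrays, against 8.04, 8.19 and 8.04 in CON arrays (4.05 ± 0.09, adjusted p = 2.68e-15). LPS array 3 stood lowest of the LPS arrays, still far above CON. A further Nfkbiz probe set rose by 4.38 ± 0.08, with 11.33, 11.49 and 11.39 in LPS arrays, against 7.05, 7.10 and 6.93 in CON arrays. Tnfaip3 encodes A20, an enzyme that edits ubiquitin chains and shuts off signalling upstream of the kinases. It stood at 7.42, 7.19 and 7.39 in LPS arrays, against 5.03, 5.05 and 4.98 in CON arrays, a rise of 4.97-fold (2.31 ± 0.12, adjusted p = 6.51e-11). In every group without LPS the Tnfaip3 signals were dim, below the array medians. The signals of Rel and Nfkbie without LPS lay below these medians as well. The share of background in the signals of these genes was not tested.

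After either particle the same 9 genes rose again under LPS. In SPIO-LPS against SPIO all 9 were higher, against 27.3% of all genes, with a median of 2.66 and a range from 1.09 for Rela to 4.29 for Nfkbiz. In Silica-LPS against Silica all 9 were higher, against 21.5% of all genes, with a median of 2.62 and a range from 0.98 for Rela to 4.11 for Nfkbiz. Nfkbie rose 9.53-fold in SPIO-LPS against SPIO, 7.07-fold in Silica-LPS against Silica and 6.46-fold in LPS against CON. Tnfaip3 rose 6.30-fold, 7.38-fold and 4.97-fold in the same 3 comparisons.

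**Figure D2:**
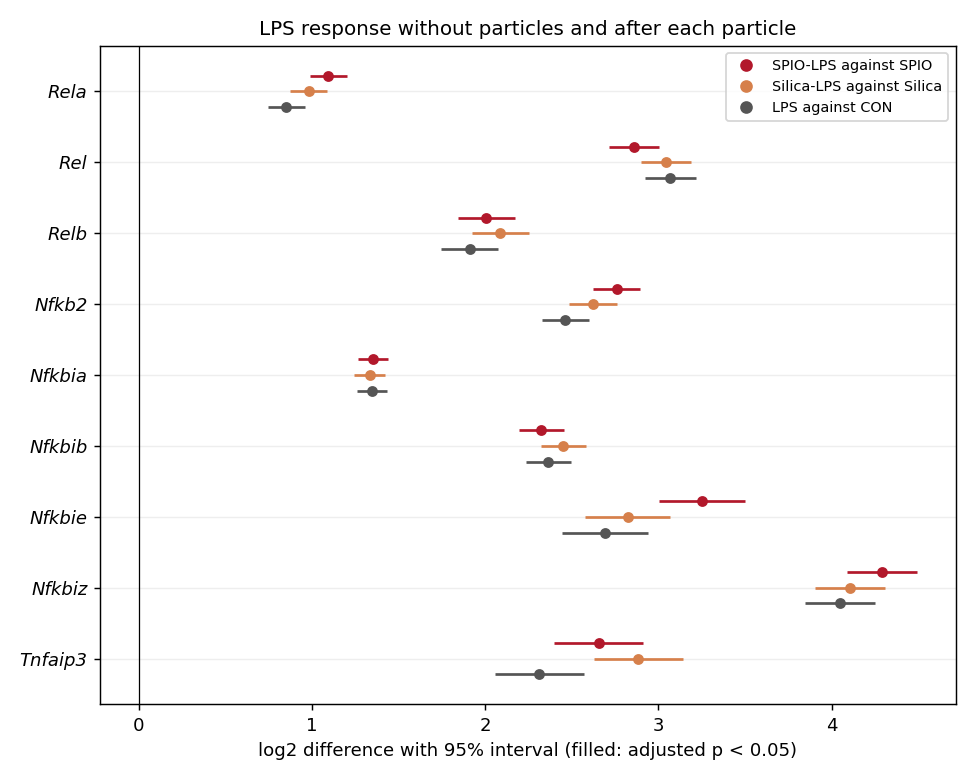
Log2 difference of each gene between arrays with and without LPS, with its 95% interval (horizontal axis), after iron oxide, after silica and without particles. All 27 differences lie above 0, from 0.85 for Rela in LPS against CON to 4.29 for Nfkbiz in SPIO-LPS against SPIO.

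Whether the LPS response itself differed after a particle was tested as an interaction, the LPS difference after the particle minus that without it. For iron oxide 2 of 9 members were called, Rela (0.24 ± 0.07, adjusted p = 0.0439) and Nfkbie (0.56 ± 0.16, adjusted p = 0.0449), both with a larger LPS difference after the particle, against 3.73% of all genes called higher, 5.07% called lower and 8.8% called either way. Both lost the call when any of 10 of the 12 arrays was left out, with adjusted p from 0.0113 to 0.114 for Rela and from 0.00152 to 0.103 for Nfkbie over the 12 fits. The Rela call held without LPS array 3 or SPIO-LPS array 1, and the Nfkbie call without SPIO array 1 or SPIO array 3. The SPIO arrays of Nfkbie, at 5.50, 5.91 and 6.20, had the widest spread of that gene in any group, and without SPIO array 1 its interaction was 0.38. With the replicate number as a block Nfkbie lost the call too (adjusted p = 0.0561), leaving 1 of 9, and Rela lost it with cyclic loess scaling between arrays (0.23, adjusted p = 0.0537).

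Nfkb2 stood at 0.30 ± 0.09 in the iron oxide interaction (adjusted p = 0.0593). It passed in 6 of 20 alternatives, with adjusted p = 0.0247 under a variance trend and 0.0302 under cyclic loess. The further Nfkb2 probe set was not called in this interaction (0.20 ± 0.13, adjusted p = 0.44). For silica 0 of 9 interactions were called by limma, against 0.0161% of all genes, and 1 of the 9 had an unadjusted p below 0.05, as did 6.8% of all genes. That was Tnfaip3, at 0.57 ± 0.17 (adjusted p = 0.42), and the 95% intervals of the 9 silica interactions ran from -0.23 to 0.93.

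Iron oxide without LPS moved the members in both directions. In SPIO against CON 4 of 9 fell and 2 rose, against 14.2% of all genes called lower and 19.6% called higher. The median of the 9 was -0.16, and that of all genes -0.01. Nfkbiz, the inhibitor genes Nfkbie and Tnfaip3 and the subunit gene Nfkb2 fell, and Rel and Nfkbib rose.

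Nfkbiz fell the most, with 7.47, 7.64 and 7.48 in SPIO arrays, against 8.04, 8.19 and 8.04 in CON arrays (-0.56 ± 0.09, 1.47-fold, adjusted p = 0.000246). Its further probe set stood at 6.08, 6.08 and 6.26 in SPIO arrays, against 7.05, 7.10 and 6.93 in CON arrays (-0.88 ± 0.08, adjusted p = 4.51e-07). Neither probe set overlapped between the groups. Nfkb2 fell by 0.27 ± 0.06 (adjusted p = 0.00415), with 6.77, 6.83 and 6.96 in SPIO arrays, all below the CON values given above, and its further probe set stood at -0.31 ± 0.09 (adjusted p = 0.0147).

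Tnfaip3 stood at 4.61, 4.58 and 4.73 in SPIO arrays, below all CON arrays (-0.38 ± 0.12, adjusted p = 0.0231). These dim signals lie nearer the lower quartiles of the SPIO arrays (4.11 to 4.20) than their medians (6.37 to 6.42). The Tnfaip3 call was lost without CON array 1, CON array 2, SPIO array 1 or SPIO array 2, with adjusted p from 0.031 to 0.0757 over the 6 fits that left out 1 array. Nfkbie was called lower (-0.39 ± 0.12, adjusted p = 0.016), yet its SPIO arrays overlapped those of CON. Without SPIO array 1, the lowest, the Nfkbie difference was -0.21 (adjusted p = 0.053) and 4 of the 9 members were called. Without CON array 3 it was -0.35 (adjusted p = 0.0601).

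Rel rose to 5.75, 5.91 and 5.98 in SPIO arrays, above all CON arrays (0.41 ± 0.07, 1.33-fold, adjusted p = 0.000211). Nfkbib rose to 7.71, 7.66 and 7.68 in SPIO arrays, again with no overlap (0.26 ± 0.06, adjusted p = 0.00373). The other 3 members were not called. Rela was at -0.11 ± 0.05 (adjusted p = 0.0931), Relb at -0.16 ± 0.08 (adjusted p = 0.114) and Nfkbia at -0.11 ± 0.04 (adjusted p = 0.051). For Nfkbia the probe set with the largest LPS rise was called lower in SPIO, at 10.52, 10.48 and 10.48, against 10.61, 10.86 and 10.73 in CON (-0.24 ± 0.06, adjusted p = 0.00497). The remaining Nfkbia probe sets gave -0.13 ± 0.05 (adjusted p = 0.0478) and -0.14 ± 0.08 (adjusted p = 0.214). Relb was called without SPIO array 3, the highest (-0.25, adjusted p = 0.0144).

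With LPS present, Nfkbib and Rel were again higher and Nfkbiz lower after iron oxide. In SPIO-LPS against LPS 2 of 9 members rose and 1 fell, close to the 18.2% of all genes called higher and 14.6% called lower. Nfkbib rose to 9.92, 10.01 and 10.09 in SPIO-LPS arrays, above all LPS arrays (0.22 ± 0.06, adjusted p = 0.0115). Rel was higher too, with 8.71, 8.83 and 8.68 in SPIO-LPS arrays (0.20 ± 0.07, adjusted p = 0.0348), a call lost without any of the LPS arrays or without SPIO-LPS array 1 or 2 (adjusted p up to 0.136). Without SPIO-LPS array 3 the Nfkbib call was lost as well (0.18, adjusted p = 0.0597). Of the 9 members 1 was called without LPS array 1, LPS array 2 or SPIO-LPS array 3.

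Nfkbiz fell, with 11.80, 11.88 and 11.78 in SPIO-LPS arrays, against 12.26, 12.28 and 11.88 in LPS arrays (-0.32 ± 0.09, adjusted p = 0.0159). This call was lost without LPS array 1, LPS array 2 or SPIO-LPS array 3, with adjusted p up to 0.0822. The further Nfkbiz probe set separated the groups more widely, at 10.80, 10.76 and 10.50 in SPIO-LPS arrays, against 11.33, 11.49 and 11.39 in LPS arrays (-0.72 ± 0.08, adjusted p = 4.24e-06). Nfkb2, Nfkbie and Tnfaip3, lower in SPIO against CON, were not called in SPIO-LPS against LPS, at 0.03 ± 0.06, 0.17 ± 0.12 and -0.04 ± 0.12. The 95% intervals of the 6 members not called ran from -0.29 to 0.42.

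Nfkbia was at -0.10 ± 0.04 by its brightest probe set (adjusted p = 0.0638). The probe set with the largest LPS rise was called lower, with 13.29, 13.35 and 13.31 in SPIO-LPS arrays, against 13.54, 13.54 and 13.47 in LPS arrays (-0.20 ± 0.06, adjusted p = 0.0165). The remaining Nfkbia probe sets gave -0.23 ± 0.08 (adjusted p = 0.0447) and -0.10 ± 0.05 (adjusted p = 0.132). Rela was at 0.13 ± 0.05 (adjusted p = 0.0601), with 11.06, 11.14 and 11.15 in SPIO-LPS arrays overlapping those of LPS. Fits with a variance trend or without the dimmest genes called Rela higher and Nfkbia lower, for 5 members in all.

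**Figure D3:**
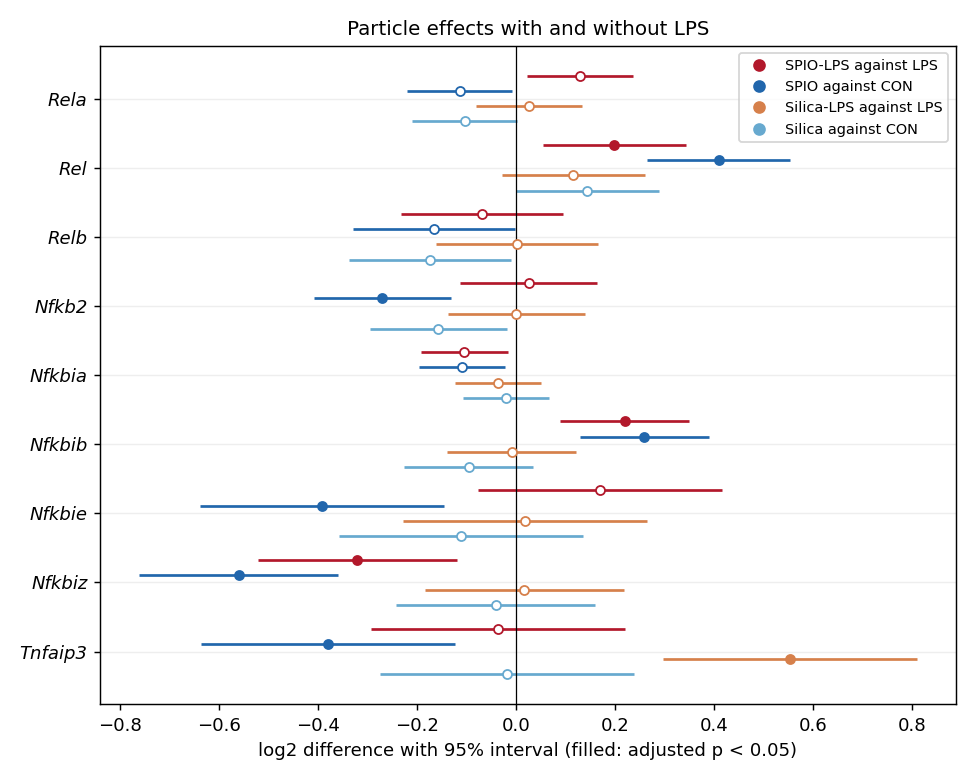
Log2 difference of each gene with its 95% interval (horizontal axis) for iron oxide and silica, each with and without LPS, where filled points passed at an adjusted p below 0.05. Iron oxide without LPS holds 6 of the 10 filled points, and the single one of silica is Tnfaip3 in Silica-LPS against LPS, at 0.55.

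Marker genes and control probe sets moved with iron oxide, and in part with LPS and silica. Summed up as the mean log2 signal of a marker list per array, 8 neutrophil markers stood at 8.55 to 8.65 in SPIO, against 9.11 to 9.17 in CON, and 7 of 8 were called lower. The 10 fibroblast markers stood at 8.69 to 8.73 in SPIO, against 8.98 to 9.03 in CON, with 6 of 10 called lower. In SPIO-LPS against LPS 6 of 8 neutrophil and 7 of 10 fibroblast markers were called lower. Of 10 macrophage markers 3 were called higher and 6 lower in SPIO against CON. The 3′ minus 5′ difference of the Gapdh control probe sets, a sign of RNA quality, was 0.47 ± 0.03 in SPIO and 0.69 ± 0.04 in CON (SD, n = 3 each), and that of Actb 0.66 ± 0.01 in SPIO and 0.59 ± 0.02 in CON. These control values differed between other groups as well. The Gapdh difference was 0.52 ± 0.05 in LPS and 0.56 ± 0.02 in Silica, and that of Actb 0.38 ± 0.05 in LPS and 0.62 ± 0.02 in Silica (SD, n = 3 each), against the CON values above. In LPS against CON 2 of 10 macrophage markers were called higher and 7 lower. The part of these shifts in the iron oxide, silica and LPS differences was not tested.

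Silica alone called none of the 9 members by limma, against 4.02% of all genes called either way, 2.45% higher and 1.57% lower. An unadjusted p below 0.05 was found for 2 of 9 members and for 17.9% of all genes. By the brightest probe sets the differences in Silica against CON lay between -0.17 for Relb and 0.14 for Rel, with 95% intervals from -0.36 to 0.29. Of the further probe sets that of Nfkb2 gave -0.30 ± 0.09 (adjusted p = 0.0817), and 1 was called, that of Nfkbiz, at 6.37, 6.50 and 6.52 in Silica arrays, against 7.05, 7.10 and 6.93 in CON arrays (-0.56 ± 0.08, adjusted p = 0.00121). The brighter Nfkbiz probe set, at 8.06, 8.01 and 8.07 in Silica arrays, overlapped CON (-0.04 ± 0.09), so the 2 probe sets disagree here. With probe sets averaged per gene, Nfkbiz (-0.30, adjusted p = 0.0181) and Nfkb2 (-0.23, adjusted p = 0.0126) were called lower.

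**Figure D4:**
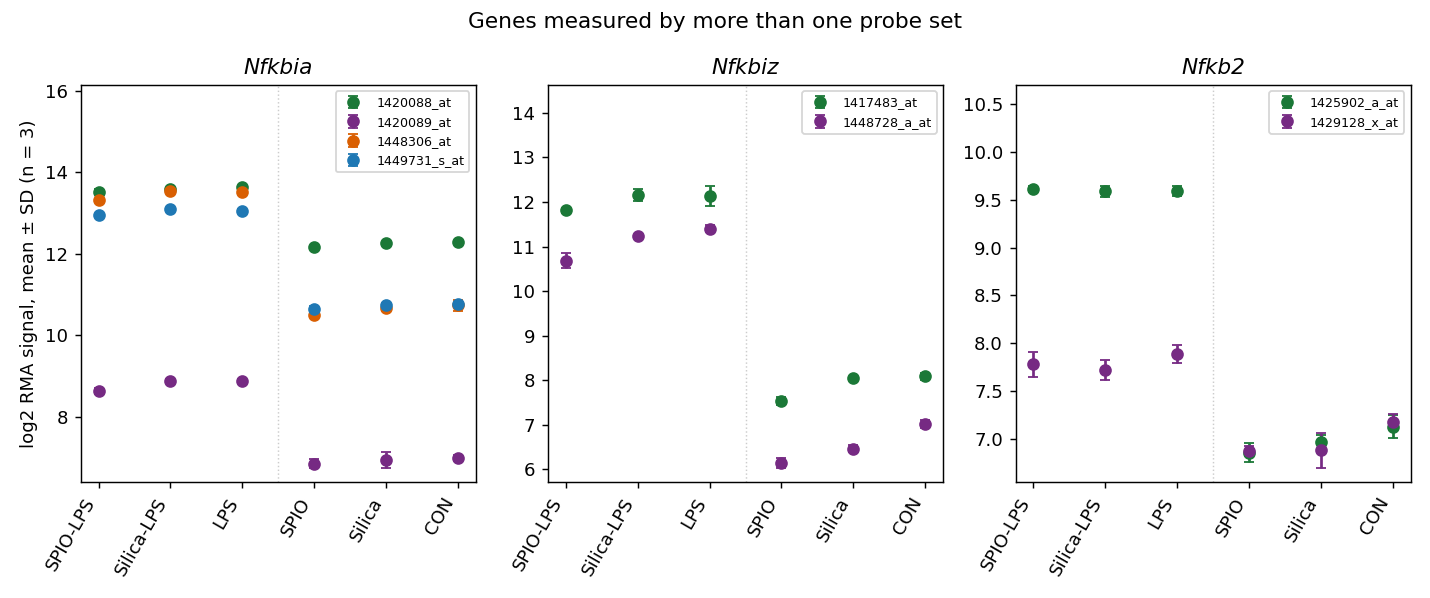
Mean log2 RMA signal (vertical axes) with SD over 3 arrays for each probe set of the 3 genes that have several, by group. The brightest Nfkbia probe set rises by 1.35 under LPS and the other 3 by 1.88 to 2.78, and of the Nfkbiz probe sets the dimmer one separates Silica from CON.

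With LPS present, Tnfaip3 was the 1 member called after silica. It stood at 7.79, 7.71 and 8.16 in Silica-LPS arrays, against 7.42, 7.19 and 7.39 in LPS arrays, a rise of 1.47-fold (0.55 ± 0.12, adjusted p = 0.0205), while 1.89% of all genes were called higher and 0.976% lower. All Silica-LPS arrays lay above all LPS arrays. The call was lost without LPS array 2 (0.48, adjusted p = 0.0983), without Silica-LPS array 3, the highest (0.42, adjusted p = 0.0911), and in a fit of the 2 groups alone (adjusted p = 0.135). The other 8 members had 95% intervals between -0.23 and 0.27.

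With the particles set directly against each other, Nfkbiz, Tnfaip3 and Nfkbib were called with and without LPS. Not all of these calls held when 1 array was left out. In SPIO-LPS against Silica-LPS 2 of 9 members were lower, against 12.9% of all genes, and 1 was higher, close to the 12.2% of all genes. Tnfaip3 was lower, at 7.29, 7.35 and 7.24 in SPIO-LPS arrays, against 7.79, 7.71 and 8.16 in Silica-LPS arrays (-0.59 ± 0.12, adjusted p = 0.00173). Nfkbiz was lower too (-0.34 ± 0.09, adjusted p = 0.0154) and Nfkbib higher (0.23 ± 0.06, adjusted p = 0.012). The further Nfkbiz probe set gave -0.55 ± 0.08 (adjusted p = 9.65e-05). Nfkbia was not called by its brightest probe set (-0.07 ± 0.04, adjusted p = 0.264), but 2 others called it lower, at -0.24 ± 0.06 (adjusted p = 0.00821) and -0.14 ± 0.05 (adjusted p = 0.0491), as did its averaged probe sets (-0.17, adjusted p = 0.0102). Without SPIO-LPS array 3 the calls of Nfkbiz and Nfkbib were lost (adjusted p = 0.0501 and 0.0583), which left 1 of the 9 members called, and the Nfkbiz call was lost without Silica-LPS array 1 or 3 as well.

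In SPIO against Silica 2 of 9 members were higher and 2 lower, against 14.6% of all genes called higher and 11.6% lower. Nfkbib was at 7.71, 7.66 and 7.68 in SPIO arrays, against 7.31, 7.49 and 7.19 in Silica arrays (0.35 ± 0.06, adjusted p = 0.000439). Rel was higher by 0.27 ± 0.07 (adjusted p = 0.0087), with 5.52, 5.57 and 5.75 in Silica arrays, and lost the call without SPIO array 3 (adjusted p = 0.0504). Nfkbiz was lower by 0.52 ± 0.09 and did not overlap between the groups (-0.52, adjusted p = 0.000689). Tnfaip3 was lower (-0.36 ± 0.12, adjusted p = 0.0371), but Silica array 1, at 4.70, lay within the SPIO range, and leaving out 1 array ended the call in 4 of 6 fits, those without Silica array 2 or 3 or SPIO array 1 or 2 (adjusted p up to 0.161).

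The groups were ordered by the mean of the brightest probe set. From high to low the order was SPIO-LPS, Silica-LPS, LPS, CON, Silica and SPIO for Rela, Nfkb2 and Nfkbie. In Nfkb2 the 3 groups with LPS overlapped, as did each neighbouring pair of the 3 without it. In Rel the order was SPIO-LPS, Silica-LPS, LPS, SPIO, Silica and CON, and only SPIO-LPS and Silica-LPS overlapped. Nfkbia ran LPS, Silica-LPS, SPIO-LPS, CON, Silica and SPIO, with overlap between each pair of neighbours except SPIO-LPS with CON and Silica with SPIO. Nfkbib ran SPIO-LPS, LPS, Silica-LPS, SPIO, CON and Silica, with overlap between LPS and Silica-LPS and between CON and Silica. Silica-LPS stood highest for Relb, Nfkbiz and Tnfaip3, and in Tnfaip3 alone of these 3 it did not overlap the next group. The further Nfkbiz probe set stood highest in LPS instead, at 11.40, against 11.24 in Silica-LPS. Some further probe sets of Nfkbia and Nfkb2 gave other orders too.

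The 9 genes correlated with each other at r of 0.96 or more over the 18 arrays, with the LPS step as the shared feature, so these values describe that step. Each member had between 1064 and 1139 other genes with r above 0.9. The genes most like Nfkbiz were Gbp7 (r = 0.999) and Rnf114 (r = 0.999), and those most like Rel were Sap30 (r = 0.999) and Tor1aip2 (r = 0.999). Relb and Nfkb2 had the same 2 nearest genes, Tap2 (r = 0.998 and 0.999) and Birc3 (r = 0.997 and 0.999). Tnfaip3 was nearest to Lztfl1 (r = 0.990) and Steap4 (r = 0.989), Nfkbie to Irf5 (r = 0.997) and Irgm2 (r = 0.995), and Rela to Agrn (r = 0.996) and Oasl1 (r = 0.994). Nfkbia was nearest to Rnf114 and Helz2 (both r = 0.999), and Nfkbib to Gch1 (r = 0.998) and Usb1 (r = 0.997).

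The kinases and adaptors upstream of NF-kB were less uniform. Of 23 measured, 15 rose and 4 fell in LPS against CON (median 0.40), against 22.2% of all genes called higher and 36.1% called lower. Traf1, an adaptor of TNF receptors, rose by 5.43 ± 0.11, the kinase gene Map3k8 by 3.08 ± 0.08, the TLR adaptor gene Myd88 by 2.62 ± 0.04 and Ikbke, an I kappa B kinase relative, by 2.53 ± 0.05. Tlr4, the LPS receptor gene, fell by 0.75 ± 0.05. In SPIO against CON 8 of the 23 rose and 5 fell, against 19.6% of all genes called higher and 14.2% lower, with Ikbkg, the regulatory subunit of the I kappa B kinase complex, at 0.80 ± 0.05 and Cd14, the LPS co-receptor, at -0.80 ± 0.04. In SPIO-LPS against LPS 7 rose and 3 fell, against 18.2% of all genes called higher and 14.6% lower, with Ikbkg at 1.14 ± 0.05, Traf5, another TNF receptor adaptor, at 1.08 ± 0.06, Map3k8 at -0.52 ± 0.08 and Ikbke at -0.42 ± 0.05. Of the 23, 1 was called in Silica against CON, Tlr4 (0.21 ± 0.05), against 4.02% of all genes, and none in Silica-LPS against LPS by limma.

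A list of other negative regulators and I kappa B related genes had 19 measured, not all of them inhibitors. Of these, 10 rose and 6 fell in LPS against CON (median 0.21), against 22.2% of all genes called higher and 36.1% called lower. Usp18, which removes the ubiquitin-like ISG15, rose by 6.32 ± 0.10, Zc3h12a, an RNase of cytokine messages, by 3.20 ± 0.11, and Tnip1, a partner of A20, by 2.70 ± 0.05. In SPIO against CON 6 rose and 3 fell, against 19.6% of all genes called higher and 14.2% lower. Bcl3, a nuclear I kappa B relative like Nfkbiz, fell by 0.36 ± 0.06 in SPIO against CON and by 0.67 ± 0.06 in SPIO-LPS against LPS, where 4 of the 19 rose and 4 fell, close to the 18.2% of all genes called higher and 14.6% called lower. It also fell in Silica against CON (-0.26 ± 0.06), while Tax1bp1, a partner of A20, rose (0.19 ± 0.05).

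Of 38 well-known NF-kB target genes, 35 rose and 1 fell in LPS against CON (median 2.71), against 22.2% of all genes called higher and 36.1% called lower. Il6 rose by 8.26 ± 0.12 and Cxcl10 by 7.66 ± 0.15. In SPIO against CON 20 fell and 7 rose (median -0.21), against 14.2% of all genes called lower and 19.6% higher, with Il1b at -1.51 ± 0.08, Marcksl1 at -1.46 ± 0.07 and Cxcl2 at -1.28 ± 0.07. In SPIO-LPS against LPS 14 fell and 9 rose (median -0.10, all genes 0.01), against 14.6% of all genes called lower and 18.2% higher, with the chemokine gene Cxcl1 at 0.99 ± 0.12, Tnf at 0.68 ± 0.08, Lcn2, an iron-scavenging defence gene, at -0.78 ± 0.08 and Ccl2 at -0.71 ± 0.09. In the iron oxide interaction 12 targets were called above 0 and 6 below, against 3.73% and 5.07% of all genes. The largest were Cxcl1 (1.85 ± 0.18), Cxcl2 (1.68 ± 0.10) and Il1b (1.36 ± 0.12). An interaction above 0 is not by itself a higher signal with LPS, since it also counts the difference without LPS. Cxcl2 and Il1b were lower in SPIO against CON, as given above. For Cxcl1 the 0.99 in SPIO-LPS against LPS was less than its interaction of 1.85, so its difference without LPS was below 0. After silica 7 fell and 1 rose without LPS, against 1.57% of all genes called lower and 2.45% higher, led by Ccl2 (-0.83 ± 0.09). With LPS present 3 fell after silica, against 0.976% of all genes called lower, namely Csf1 (-0.37 ± 0.05), Cd83 (-0.21 ± 0.05) and Vcam1 (-0.20 ± 0.04). The SPIO and Silica comparisons without LPS share the CON arrays, and those with LPS share the LPS arrays.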

How the data were processed

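Per the submitters' processing notes, the deposited log2 signals per probe set came from RMA (program version not given in the sources used here). That the scale is log2 was read from the values. Of 22690 probe sets 64 were controls, and the platform annotation pairs 20380 of the other 22626 with 1 symbol, 691 with several and 1555 with none. Old symbols were replaced through Entrez identifiers. Each of 12393 genes was represented by its brightest probe set on average, a choice that mattered for 4956 genes with more than 1. In R 4.3.3 with limma 3.58.1, lmFit estimated a mean for each group from all 18 arrays together, and eBayes tested 11 contrasts. P-values were adjusted by Benjamini and Hochberg over all genes within a contrast (over all probe sets for single probe sets), and a gene was called below 0.05. Errors after ± are standard errors of this model unless given as SD. The procedure was tested on simulated data. The number of arrays limits the precision.

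Same-numbered arrays of different groups showed no sign of deviating together (correlations from -0.31 to 0.19, against -0.26 to 0.24 for other numbers). With 3 arrays per group this cannot show whether equal numbers share a mouse or batch. The main fit left arrays unpaired. The members and lists were chosen with earlier results of these data known. Other genes named were up to 4 called genes per list and comparison with the largest change and the 2 genes most correlated with each member, besides Tlr4, Cd14 and the macrophage markers. Alternatives were a replicate block, a fit restricted to the groups compared, a robust prior with variance trend, leaving out the dimmest genes, averaging probe sets, every probe set alone, cyclic loess, and leaving out each array. Figures were drawn with Python 3.11.15 and matplotlib 3.10.9.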

Additional observations from a re-analysis of the deposited data

Results flagged for a closer look

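The LPS difference of 2 genes was larger after iron oxide than without particles by the test of the interaction. For Rela the interaction was 0.24 on the log2 scale (adjusted p = 0.0439), from LPS differences of 1.09 in SPIO-LPS against SPIO and 0.85 in LPS against CON. For Nfkbie it was 0.56 (adjusted p = 0.0449), from 3.25 and 2.69 in the same 2 comparisons. Each call was lost in 10 of the 12 fits that left out an array. Both were lost in the fit of the compared groups alone (adjusted p = 0.0928 for Rela and 0.109 for Nfkbie). Nfkbie was lower in SPIO against CON (-0.39), and it was not called in SPIO-LPS against LPS (0.17, adjusted p = 0.302).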

How the results depend on the processing

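In LPS against CON, Silica-LPS against Silica and SPIO-LPS against SPIO all 9 members were called under every alternative run. Of 1450 values of single members under alternatives, 1358 kept their status, which includes values called in neither fit. Of the others 59 lost a call, all in particle or interaction comparisons, and 33 gained one. None changed sign while called. With the replicate number as a block, 1 of 9 was called in the iron oxide interaction in place of 2, and no other count of calls moved by over 1.5 times. In fits of the compared groups alone 0 were called in Silica-LPS against LPS (1 in the fit of all arrays), 1 in SPIO-LPS against LPS (3), 0 in the iron oxide interaction (2) and 2 in SPIO against Silica (4), with fewer arrays behind the spread. A variance trend, or leaving out the dimmest genes, gave 5 in SPIO-LPS against LPS. The mean of probe sets gave 2 in Silica against CON and every probe set alone 1, in place of 0, and every probe set alone gave 0 in the iron oxide interaction. There Rela and Nfkbie, with 1 probe set each, kept the same differences. Their fit and adjustment ran over all probe sets instead of genes (adjusted p = 0.0567 for Rela and 0.0504 for Nfkbie). Beyond those constructions the cause was not tested. Leaving out each array gave 4 to 7 in SPIO against CON (6), 0 to 1 in Silica-LPS against LPS, 1 to 3 in SPIO-LPS against LPS, 0 to 2 in the iron oxide interaction, 3 to 4 in SPIO against Silica and 1 to 3 in SPIO-LPS against Silica-LPS. In both silica comparisons without calls it gave 0. Same-numbered arrays showed no sign of deviating together, and 5 of 18 correlated best with their own number.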
